A study of Mus musculus with 4 samples.

Results

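The IAPEY group comprises the genomic copies of intracisternal A-particle (IAP) elements whose repeat names start with IAPEY or IAPEy. Copies were taken by repeat name, and the group was chosen with earlier results of these data known. The group held 7637 of the 3658072 TE copies counted, under 10 repeat names, 4 of them internal parts and 6 of them long terminal repeats (LTRs). Their RNA was compared between WT and G3 *Terc*-/- embryonic stem cells (ESCs), to ask how IAPEY transcripts differed in cells that lack the telomerase RNA. All cells were C57BL/6 ESCs grown on feeder cells with LIF and serum, and libraries were made from poly(A) RNA. WT ESCs were the line N12, labelled as G3 WT, and G3 *Terc*-/- ESCs were the line F35, derived from blastocysts of intercrossed G2 *Terc*-/- mice. Each genotype had 2 libraries of a single line, so genotype and line cannot be told apart, and p-values measured the spread between libraries of a line.

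IAP elements are endogenous retroviruses of the mouse, in which 2 LTRs flank an internal part with gag, pro and pol sequences. The LTR carries the promoter and the polyadenylation signal. Elements of the IAPE branch also carry an envelope gene, whose product uses ephrin-A proteins on the cell surface as receptors, and IAPE-Y was first described as a family amplified on the mouse Y chromosome. In ESCs, IAP elements are silenced by KRAB zinc finger proteins that recruit TRIM28 and SETDB1, which deposits H3K9me3, and by DNA methylation.

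The libraries held 18047995 to 22520017 gene counts and 1805047 to 2104586 TE counts each. *Terc* (GRCm38 chromosome 3, 96414437 to 96414833) was counted 7 and 2 times in WT and 0 times in both G3 *Terc*-/- libraries, where 0 allows up to 3 counts. Copies are given by name and number, and whether one lay on the Y chromosome, in a gene or near a telomere was not analysed here. Reads from near-identical copies may have been assigned to another copy, and a value of a single copy is uncertain to that extent.

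IAPEY transcripts were more abundant in G3 *Terc*-/- ESCs. Summed over the group there were 748 and 746 counts in the WT libraries against 1539 and 1333 in those of G3 *Terc*-/- ESCs. In CPM of the TE counts, WT ESCs had 358.9 ± 6.25 and G3 *Terc*-/- ESCs 741.8 ± 4.69 (SD, n = 2 each), a ratio of 2.07. The 2 genotypes did not overlap, and the difference was far larger than the spread between replicates. Internal parts went from 180.5 ± 12.7 CPM to 472.3 ± 12.1 CPM (SD, n = 2 each) and LTRs from 178.4 ± 6.40 CPM to 269.5 ± 16.8 CPM (SD, n = 2 each). The ratio was thus 2.62 for internal parts and 1.51 for LTRs. With 2 libraries against 2, an exact permutation test of a single value cannot give a two-sided p below 0.33, and tests were therefore taken from edgeR fits over all repeat names, copies or genes.

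The 10 repeat names were all tested, and 6 were higher and 0 lower at the cutoffs for repeat names, a fold change of 1.5 (0.585 on the log2 scale) and *P* under 0.05 in edgeR's quasi-likelihood test. Over all repeat names tested, 5.13% were higher and 2.94% were lower. With an adjusted p-value under 0.05 (Benjamini-Hochberg over all 917 names), 5 IAPEY names were higher and 0 lower, beside 4.14% and 2.62% of all names. No IAPEY name that was lower in G3 *Terc*-/- ESCs had an unadjusted *P* under 0.05, and DESeq2 also called 0 lower. Both G3 *Terc*-/- libraries lay above both WT libraries for 6 IAPEY names and below both for IAPEY3C_LTR, where 29.3% and 31.3% of all names did so. The median log2 fold change was 0.71 over the IAPEY names and -0.00461 over all names.

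**Figure D1:**
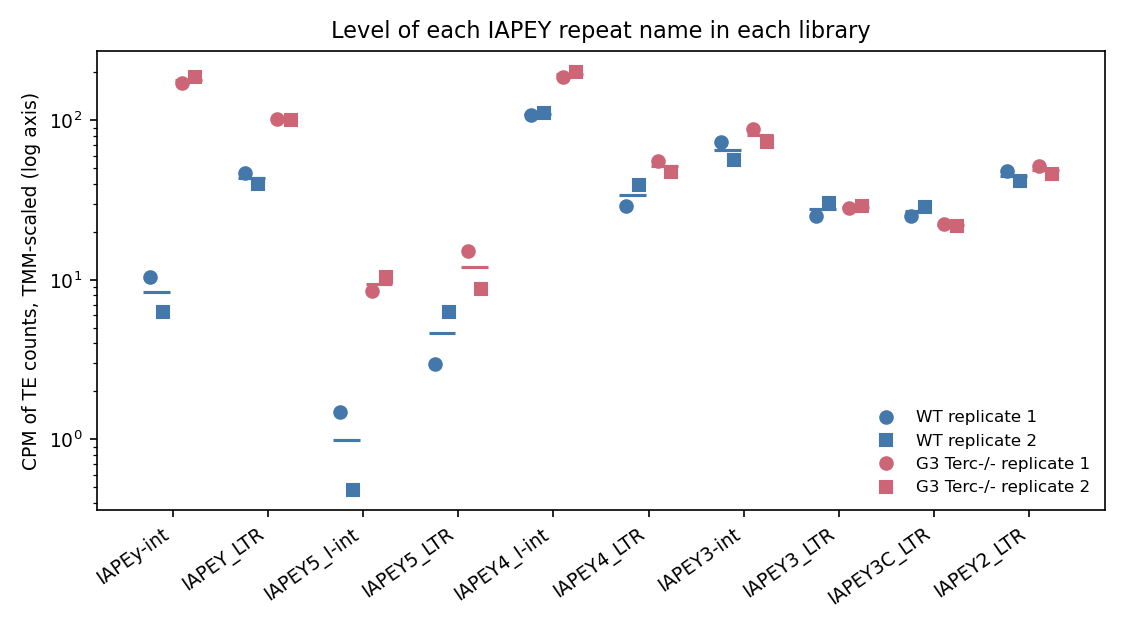
Level of the 10 IAPEY repeat names in each of the 4 libraries, as TMM-scaled CPM of TE counts on a log axis; circles and squares mark replicates 1 and 2, blue is WT, red is G3 *Terc*-/-, and short lines are means. The genotypes are apart for the IAPEY, IAPEY5 and IAPEY4 names, with IAPEy-int near 8.34 in WT and near 179.6 in G3 *Terc*-/- ESCs, and overlap for IAPEY3-int, IAPEY3_LTR and IAPEY2_LTR.

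The internal part IAPEy-int, which encodes the proteins of the element, changed most. It had 21 and 13 counts in the WT libraries against 360 and 345 in those of G3 *Terc*-/- ESCs. In TMM-scaled CPM, the scale used for all single names, its level was 8.34 ± 2.91 in WT and 179.6 ± 12.8 in G3 *Terc*-/- ESCs (SD, n = 2 each). The log2 fold change of IAPEy-int was 4.42 ± 0.19 (SE, edgeR adjusted p = 6.08e-08), the highest of the 917 repeat names tested. On copies with at least 5 counts alone it was 6.36, from 6 and 2 counts in WT against 331 and 315 in G3 *Terc*-/- libraries. Such copies pass that limit mostly through their G3 *Terc*-/- counts, so the value of 6.36 is raised by the choice of copies. IAPEy-int made up 47.1% of the difference in CPM between the genotypes over the whole group.

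IAPEY_LTR, the LTR of these elements and the carrier of their promoter, had 94 and 83 counts in WT against 215 and 185 in G3 *Terc*-/- libraries. Its level went from 43.3 ± 4.54 CPM to 101.5 ± 0.500 CPM (SD, n = 2 each), without overlap. The log2 fold change was 1.23 ± 0.13 (SE, edgeR adjusted p = 8.97e-05), rank 10 of the names tested. A single copy, number 339, with 63 and 57 counts in WT against 61 and 51 in G3 *Terc*-/- libraries, held 67.8% of the WT counts of this name. Without it IAPEY_LTR had 31 and 26 counts in WT against 154 and 134 in G3 *Terc*-/- libraries, and the log2 fold change was 2.37.

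The IAPEY5 names moved on few counts. IAPEY5_I-int, an internal part, had 3 and 1 counts in WT against 18 and 19 in G3 *Terc*-/- libraries, with a log2 fold change of 3.19 ± 0.60 (SE, edgeR adjusted p = 0.00372), the second highest of all names. When WT replicate 2 was left out of the edgeR fit it was 2.61, and when WT replicate 1 was left out it was 4.12. IAPEY5_LTR had 6 and 13 counts in WT against 32 and 16 in G3 *Terc*-/- libraries. Its log2 fold change of 1.37 ± 0.46 (SE) passed the *P* cutoff but had an adjusted p of 0.0540 in edgeR, and the lowest G3 *Terc*-/- library lay just above the highest WT library. In edgeR fits without WT replicate 1 or without G3 *Terc*-/- replicate 1, IAPEY5_LTR was 0.94 and 0.91 and no longer passed, and without WT replicate 2 it was 2.01.

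IAPEY4_I-int was already well expressed in WT ESCs, and both IAPEY4 names rose less than IAPEy-int, IAPEY_LTR and the IAPEY5 names. IAPEY4_I-int had 217 and 230 counts in WT against 394 and 370 in G3 *Terc*-/- libraries, or 109.3 ± 2.65 CPM and 194.5 ± 11.1 CPM (SD, n = 2 each). The log2 fold change was 0.83 ± 0.10 (SE, edgeR adjusted p = 0.000187), which is 1.78-fold, and it made up 23.4% of the group's difference in CPM. IAPEY4_LTR had 59 and 81 counts in WT against 117 and 87 in G3 *Terc*-/- libraries, with a log2 fold change of 0.59 ± 0.19 (SE, edgeR adjusted p = 0.0413), next to the cutoff. It was 0.34 without the copy with the most counts, 0.40 without WT replicate 1 and 0.48 without G3 *Terc*-/- replicate 1, all below the cutoff of 0.585.

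The remaining names did not pass the test. IAPEY3-int, the name with the most copies (2345), had 149 and 117 counts in WT against 186 and 134 in G3 *Terc*-/- libraries, with a log2 fold change of 0.32 ± 0.16 (SE, edgeR adjusted p = 0.183). IAPEY3_LTR had 51 and 63 counts in WT against 60 and 53 in G3 *Terc*-/- libraries, and IAPEY2_LTR had 97 and 86 in WT against 110 and 84 in G3 *Terc*-/- libraries. In these 3 names the genotypes overlapped. The log2 fold changes were 0.04 for IAPEY3_LTR (SE 0.20 and adjusted p = 0.913 in edgeR) and 0.14 for IAPEY2_LTR (SE 0.16 and adjusted p = 0.609 in edgeR), and both changed sign under another setting. IAPEY3C_LTR had 51 and 59 counts in WT against 47 and 40 in G3 *Terc*-/- libraries, with a log2 fold change of -0.28 ± 0.21 (SE, edgeR adjusted p = 0.375).

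**Figure D2:**
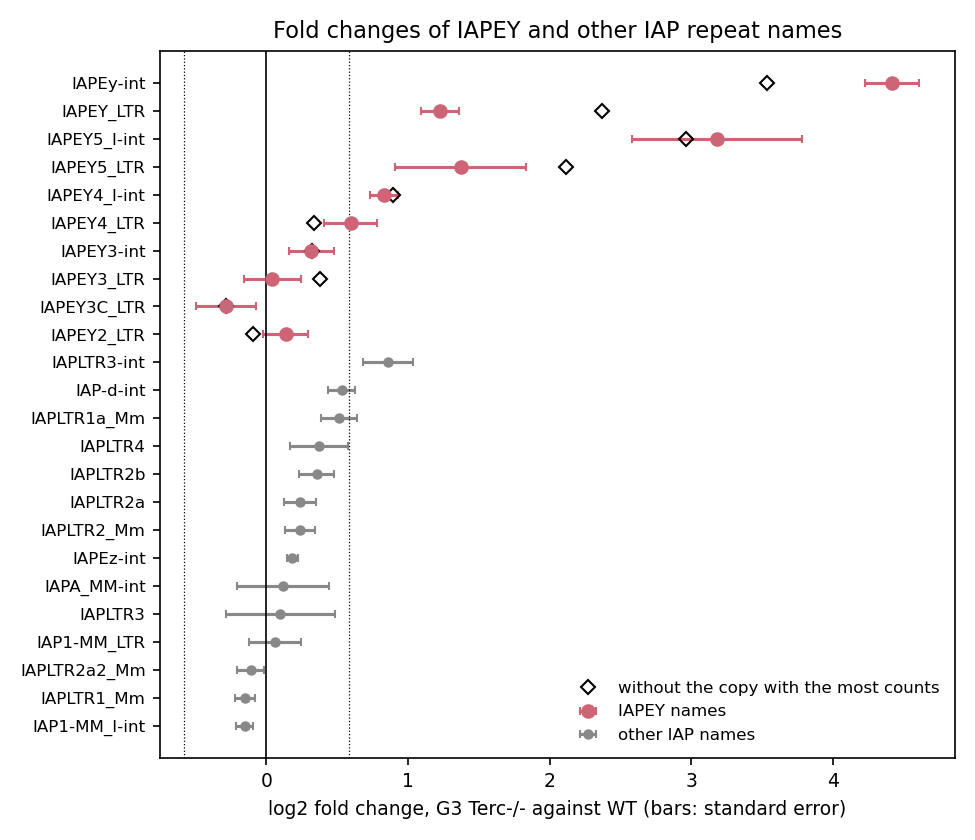
Log2 fold changes (G3 *Terc*-/- against WT, edgeR) of the 10 IAPEY names in red and of the 14 tested names of other IAP elements in grey, with standard errors as bars; diamonds leave out the leading copy of an IAPEY name, and dotted lines mark the cutoff of 0.585 in either direction. IAPEy-int at 4.42 and IAPEY5_I-int at 3.19 stand to the right of the others, and among the grey points only IAPLTR3-int, at 0.86, lies past the cutoff.

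Other IAP elements served as the closest comparison. Of their 14 tested names, 1 was higher (IAPLTR3-int, 0.86, SE 0.18 and adjusted p = 0.00564 in edgeR) and 0 were lower at the cutoffs. At any size, 7 names had an unadjusted *P* under 0.05. IAP1-MM_I-int, at -0.16, was the 1 negative value among them (adjusted p = 0.0941 in the same edgeR fit), and the others were higher in G3 *Terc*-/- ESCs. Their median was 0.21. IAPEz-int, the internal part of the most abundant IAP elements, had 4265 and 4490 counts in WT against 4982 and 4565 in G3 *Terc*-/- libraries, with a log2 fold change of 0.18 ± 0.04 (SE, edgeR adjusted p = 0.00632). Per 1000 IAPEz-int counts of the same library there were 4.92 and 2.90 IAPEy-int counts in WT against 72.3 and 75.6 in G3 *Terc*-/- ESCs. The same ratio was 50.9 and 51.2 in WT against 79.1 and 81.0 in G3 *Terc*-/- ESCs for IAPEY4_I-int. Over the group there were 9.57 and 9.10 IAPEY counts per 100 counts of other IAP elements in WT against 17.2 and 16.7 in G3 *Terc*-/- libraries. None of these ratios overlapped between the genotypes, and for each the exact permutation test gave the smallest two-sided p it can, 0.33.

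Of the remaining IAP names compared, IAP-d-int (0.53, adjusted p = 0.00309 in edgeR) and IAPLTR1a_Mm (0.51, adjusted p = 0.0138 in edgeR) were higher and came close to the fold cutoff. IAPLTR2b (0.35), IAPLTR2a (0.24), IAPLTR2_Mm (0.24) and IAPA_MM-int (0.12) were below it, and IAPLTR1_Mm was at -0.15. Summed over all other IAP copies the level was 3846 ± 69.4 CPM in WT and 4378 ± 72.4 CPM in G3 *Terc*-/- ESCs (SD, n = 2 each), a ratio of 1.14.

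Most IAPEY copies had no counts in either genotype. This held for 94.1% of the copies, and 449 copies had at least 1 count. Copies were tested where they had at least 5 counts over the 4 libraries, which left 123 (1.61% of the copies, beside 4.81% of all TE copies), with 18 copies at exactly 5 counts just inside this limit and 25 at exactly 4 just outside. A copy with counts in one genotype alone passes the limit through that genotype, so the tested copies do not stand for the whole group. At a fold change of 2 and *P* under 0.05, 27 tested copies were higher (21.95%) and 1 was lower (0.813%), where 4.7% and 3.87% of all TE copies tested were. Of the 863 tested copies of other IAP elements, 7.3% were higher and 3.24% lower. Among the IAPEY copies the calls depended on the setting. By adjusted p-value 13 IAPEY copies were higher and 0 lower, beside 0.634% and 0.366% of all copies tested. The number of IAPEY copies called higher was 15 with DESeq2, which called 0 lower.

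More copies had counts in G3 *Terc*-/- ESCs. At least 1 count was present on 169 and 151 copies in the WT libraries and on 270 and 231 copies in the G3 *Terc*-/- libraries. Both G3 *Terc*-/- libraries and neither WT library had counts on 45 of the 449 copies (10.02%), and the reverse held for 8 copies (1.78%). Over all TE copies with at least 1 count these shares were 3.72% and 3.79%. For IAPEy-int, 14 and 10 copies had counts in WT against 31 and 35 in G3 *Terc*-/- libraries, with 16 copies seen in both G3 *Terc*-/- libraries alone and 0 in both WT libraries alone. A count of 0 allows up to 3 counts in a library, so a copy without counts may still be transcribed.

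IAPEy-int RNA came from few copies. Of its 755 copies, 60 had counts and 13 were tested, and 9 of these were higher, 7 of them by adjusted p-value. Copy 223 had 0 counts in both WT libraries against 166 and 153 in the G3 *Terc*-/- libraries, at least 114.4-fold higher when the WT libraries together are set at 3 counts (edgeR adjusted p = 1.44e-24). It held 45.2% of the IAPEy-int counts of G3 *Terc*-/- ESCs. Copy 224 had 1 and 0 counts in WT against 75 and 74 in G3 *Terc*-/- libraries (edgeR adjusted p = 6.44e-16), and its ratio had an exact 95% counting interval from 28.3 to 6373. Copies 223 and 224 together held 66.4% of the G3 *Terc*-/- counts of this name.

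The next IAPEy-int copies showed the same pattern on a smaller scale. They lay outside the 5 IAPEY copies with the smallest *P* and were named after their values were seen. Copy 7 had 0 counts in WT against 21 and 19 in G3 *Terc*-/- libraries, at least 14.3-fold higher, and copy 651 had 0 in WT against 14 and 26, also at least 14.3-fold higher. Copies 8, 670 and 650 had no WT count either and 28, 20 and 14 counts in both G3 *Terc*-/- libraries together. None of these copies overlapped between the genotypes, which follows from their lack of WT counts and is a description alone. Outside the 10 copies with the most counts, 17 and 11 counts remained in WT against 36 and 38 in G3 *Terc*-/- libraries. Over the 47 copies with under 5 counts there were 15 and 11 counts in WT against 29 and 30 in G3 *Terc*-/- libraries. These scattered copies made up 76.5% of the WT counts of IAPEy-int and 8.37% of those of G3 *Terc*-/- ESCs. Without copy 223, IAPEy-int kept a log2 fold change of 3.54.

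**Figure D3:**
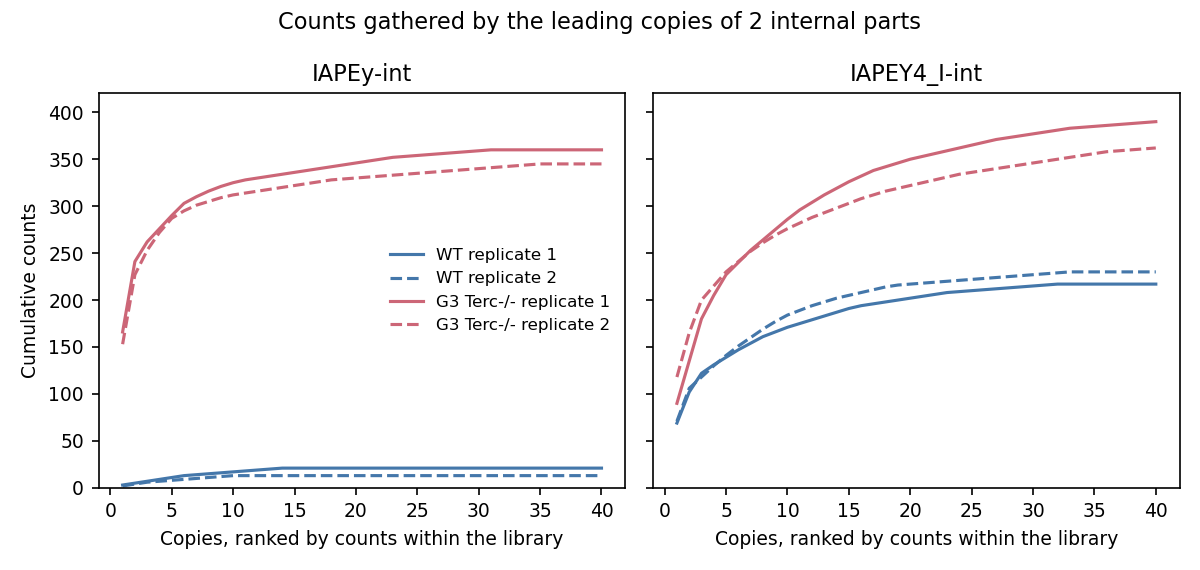
Cumulative counts over the copies of IAPEy-int (left) and IAPEY4_I-int (right), ranked within each library by their counts, for the 4 libraries. The IAPEy-int curves of G3 *Terc*-/- ESCs climb steeply over the first 5 copies and end at 360 and 345 counts while the WT curves end at 21 and 13, and the IAPEY4_I-int curves rise more gradually in all 4 libraries.

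Several IAPEY_LTR copies also had no WT count and rose. Of 12 tested IAPEY_LTR copies, 6 were higher, 4 by adjusted p-value. Copy 319 had 0 counts in WT against 26 and 22 in G3 *Terc*-/- libraries, at least 17.2-fold higher (edgeR adjusted p = 3.92e-07), and copy 318, named after its values were seen, had 0 in WT against 21 and 18 in G3 *Terc*-/- libraries, at least 13.98-fold higher. Copy 1353 had 0 and 9 counts in WT against 48 and 36 in G3 *Terc*-/- libraries, with a log2 fold change of 3.29 and an adjusted p of 1.66e-06 from edgeR. The copy with the most counts, 339, had similar counts in both genotypes, as given above.

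IAPEY4_I-int was spread over more copies. It had counts on 71 of its 521 copies, 31 were tested, and 7 were higher, 2 by adjusted p-value. Copy 369, with the most counts of the group, had 69 and 71 counts in WT against 90 and 118 in G3 *Terc*-/- libraries and stayed below the fold cutoff, and copy 136 had 33 and 35 in WT against 45 and 47 in G3 *Terc*-/- libraries. Copy 370 had 1 and 7 counts in WT against 45 and 35 in G3 *Terc*-/- libraries, with a log2 fold change of 3.38 ± 0.47 (SE, edgeR adjusted p = 5.73e-07). Copy 391 had 0 in WT against 8 and 15 in G3 *Terc*-/- libraries, at least 8.25-fold higher. Copies 370 and 391 were the 2 that passed by adjusted p-value, and 391 was named after its values were seen.

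The other names had few called copies. IAPEY4_LTR had 2 higher copies, of which copy 29, chosen after its values were seen, had 14 and 23 counts in WT against 44 and 33 in G3 *Terc*-/- libraries. IAPEY3-int had 3 higher copies, each with 20 or fewer counts in G3 *Terc*-/- ESCs and none by adjusted p-value. The single lower copy was IAPEY2_LTR copy 364, with 16 and 17 counts in WT against 5 and 7 in G3 *Terc*-/- libraries, and its log2 fold change of -1.33 (standard error 0.54) had an adjusted p of 0.349 from edgeR. IAPEY2_LTR copy 92, the fourth of the group by counts, had 51 and 38 in WT against 53 and 55 in G3 *Terc*-/- libraries and held 52.2% of the counts of its name.

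**Figure D4:**
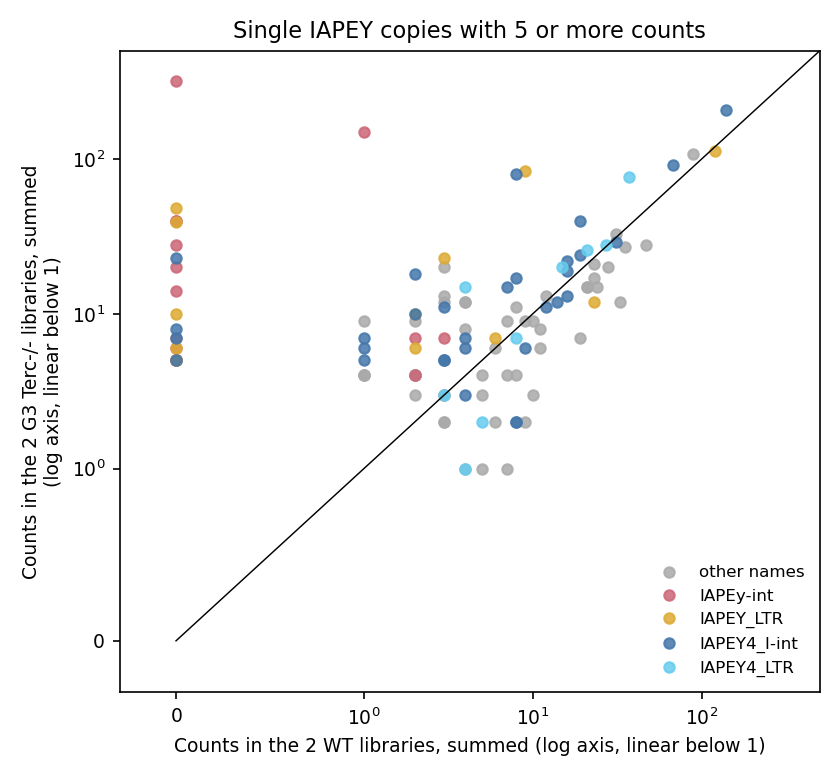
Each of the 123 tested IAPEY copies by its summed counts in the 2 WT libraries (horizontal) and the 2 G3 *Terc*-/- libraries (vertical), on log axes that are linear below 1; colours give the repeat name and the line marks equal counts. A column of IAPEy-int, IAPEY_LTR and IAPEY4_I-int copies stands at 0 WT counts, up to 319 counts in G3 *Terc*-/- ESCs, and no tested copy lies at 0 G3 *Terc*-/- counts.

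Copies without WT counts were then counted, as a description, since such copies pass the limit of 5 counts through G3 *Terc*-/- ESCs alone. Of the 123 tested IAPEY copies, 25 (20.3%) had no WT count and 0 had no G3 *Terc*-/- count, where 2.51% and 2.58% of all TE copies tested did. Of the 27 higher IAPEY copies 15 (55.6%) had no WT count, as did 29.5% of all TE copies called higher. By a limit set after the values were seen, 8 IAPEY copies, 5 of them IAPEy-int, had no WT count and at least 20 counts in G3 *Terc*-/- ESCs, beside 55 (0.0312%) of all TE copies tested. IAPEY copies were 14.5% of those 55 copies and 0.0698% of the copies tested. MERVL-int, the internal part of another endogenous retrovirus, had 12 of the 55. With the genotypes exchanged there were 13 such copies, 0 of them IAPEY. Copy 223 of IAPEy-int had the most G3 *Terc*-/- counts of any TE copy without a WT count.

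Some higher copies had consecutive numbers: 223 and 224, 7 and 8, and 650 and 651 of IAPEy-int and 318 and 319 of IAPEY_LTR. A tested copy of the same name and an adjacent number existed for 15 of the 27 higher copies (55.6%) and for 58 of the 123 tested copies (47.2%). The sources used here do not state how copies were numbered, so whether such copies lie side by side was not analysed here.

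The called copies carried much of the change but not all of it. They held 6.16% of the group's WT counts and 40.1% of its G3 *Terc*-/- counts, as their choice by this contrast implies. The copies not called higher had 336.8 ± 14.05 CPM in WT and 443.8 ± 6.37 CPM in G3 *Terc*-/- ESCs (SD, n = 2 each), a ratio of 1.32. The copies with under 5 counts went from 44.3 ± 8.16 CPM to 97.2 ± 3.54 CPM (SD, n = 2 each), a ratio of 2.22. Copies with under 5 counts are also among the copies not called higher, so these sums share counts. Neither sum overlapped between the genotypes. Among all repeat names, which are another unit than these sums, 29.3% had both G3 *Terc*-/- libraries above both WT libraries.

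The genes of the pathways that act on IAP elements were read from the gene counts. Over all genes tested, 4.73% were higher and 3.13% lower at a fold change of 2 and *P* under 0.05, and 4.43% and 3.03% with an adjusted p-value under 0.05. Of 31 genes of H3K9me3 silencing, 0 were higher and 1 was lower at these cutoffs, and with an adjusted p-value under 0.05 at any size 2 were higher and 14 lower, where 21.7% and 21.8% of all genes were. Their median log2 fold change was -0.09, beside 0.01 over all genes. *Cbx3*, which encodes the H3K9me3 reader HP1 gamma, had 3400 and 3708 counts in WT against 1427 and 1318 in G3 *Terc*-/- libraries, with a log2 fold change of -1.24 ± 0.06 (SE, edgeR adjusted p = 9.09e-21). The chromatin remodellers *Smarcad1* (-0.96) and *Atrx* (-0.72), the structural maintenance protein *Smchd1* (-0.71) and the HP1 beta gene *Cbx1* (-0.59) were lower with adjusted p-values of at most 1.41e-12 from edgeR, though by less than a fold change of 2.

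The corepressor itself went the other way. *Trim28* had 35630 and 36215 counts in WT against 49520 and 38403 in G3 *Terc*-/- libraries, with a log2 fold change of 0.41 ± 0.05 (SE, edgeR adjusted p = 9.46e-10). *Setdb1*, the H3K9 methyltransferase that TRIM28 recruits, had 3990 and 4200 counts in WT against 4007 and 3370 in G3 *Terc*-/- libraries and a log2 fold change of -0.03 ± 0.05 (SE, edgeR adjusted p = 0.711). *Cbx3* and *Smarcad1* lie on chromosome 6 between 45 and 80 Mb, a block drawn in an earlier look at these data, and the median over the 129 genes tested there was -0.90 on the log2 scale.

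Of 15 genes of DNA methylation, 0 were higher and 2 lower at the cutoffs, beside 4.73% and 3.13% of all genes. By adjusted p-value at any size 3 were higher and 7 lower, where 21.7% and 21.8% of all genes were, and the median was -0.07. *Dnmt3b*, a de novo DNA methyltransferase, had 11230 and 11596 counts in WT against 5129 and 4405 in G3 *Terc*-/- libraries, with a log2 fold change of -1.13 ± 0.05 (SE, edgeR adjusted p = 1.59e-22). *Dppa3*, which protects DNA methylation in the early embryo and binds UHRF1, had 1234 and 1293 counts in WT against 515 and 477 in G3 *Terc*-/- libraries (-1.22). It lies on chromosome 6 between 120 and 130 Mb, a block also drawn in an earlier look at these data. The 101 genes tested there had a median of 0.54. *Dnmt3a*, the other de novo enzyme, had -0.50 (edgeR adjusted p = 1.46e-11). Its cofactor *Dnmt3l* had 0.31 (adjusted p = 1.47e-06), the oxidase *Tet2* 0.46 and the methyl-CpG binding protein *Mbd1* 0.58, each below a fold change of 2. The maintenance genes *Dnmt1* (-0.07, adjusted p = 0.227) and *Uhrf1* (0.02, adjusted p = 0.818) did not pass the edgeR test, and *Uhrf1* changed sign with a library left out.

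Of 20 genes that act on retrotransposon RNA, 1 was higher and 0 were lower at the cutoffs, beside 4.73% and 3.13% of all genes. By adjusted p-value at any size 5 were higher and 3 lower, where 21.7% and 21.8% of all genes were, and the median was 0.07. *Zc3hav1*, the zinc finger antiviral protein that binds CpG-rich viral RNA, had 648 and 664 counts in WT against 1799 and 1458 in G3 *Terc*-/- libraries, with a log2 fold change of 1.43 ± 0.07 (SE, edgeR adjusted p = 7.26e-21). The microprocessor genes *Drosha* (-0.22) and *Dgcr8* (0.18), the m6A writer genes *Mettl14* (-0.30) and *Wtap* (0.15) and the RNA helicase gene *Mov10* (0.15) changed by small amounts with adjusted p-values under 0.05 in edgeR.

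The ephrin-A genes, whose products are receptors for the IAPE envelope, were all expressed at low levels. Of the 5 genes, 0 passed the fold cutoff of 2, and 3 were higher by adjusted p-value at any size, beside 21.7% of all genes. *Efna5* had 70 and 68 counts in WT and 105 in both G3 *Terc*-/- libraries (log2 fold change 0.73, SE 0.20 and adjusted p = 0.00223 in edgeR). *Efna3* (0.50) and *Efna4* (0.40) were also higher, with adjusted p-values of 0.0102 and 0.00978 from edgeR. *Efna1* had 49 and 44 counts in WT against 49 and 51 in G3 *Terc*-/- libraries, and *Efna2* had 160 and 178 in WT and 130 and 127, and neither passed the test (adjusted p = 0.493 and 0.158 from edgeR).

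Y-linked genes were read because of the Y-chromosomal amplification of IAPE-Y. Of 10 genes, 7 were tested, 5 were higher and 0 lower at the cutoffs, and all 7 were higher by adjusted p-value at any size. Over all genes, 4.73% were higher at the cutoffs and 21.7% by adjusted p-value at any size. *Ddx3y*, an RNA helicase gene, had 458 and 430 counts in WT against 2231 and 1996 in G3 *Terc*-/- libraries (log2 fold change 2.38, SE 0.07 and adjusted p = 3.42e-27 in edgeR). *Kdm5d*, an H3K4 demethylase gene, had 99 and 85 in WT against 635 and 518 in G3 *Terc*-/- libraries (2.77). *Zfy1* (3.12), *Usp9y* (2.35) and *Uba1y* (1.91) passed as well, while the histone demethylase gene *Uty* (0.98) and the translation initiation factor gene *Eif2s3y* (0.49) stayed below the fold cutoff. Summed over the list the level was 88.4 and 93.9 CPM of gene counts in WT against 238.0 and 261.3 in G3 *Terc*-/- libraries, without overlap. The Y-linked genes were thus lower in the WT line, and fewer cells with a Y chromosome and less RNA per cell cannot be told apart in these bulk samples, which bears on each value that is higher in G3 *Terc*-/- ESCs for a Y-linked gene or for a copy on the Y chromosome. Several of these genes have X-linked relatives, and reads shared with them are uncertain. The part of the Y-linked difference in the IAPEY values was not tested.

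**Figure D5:**
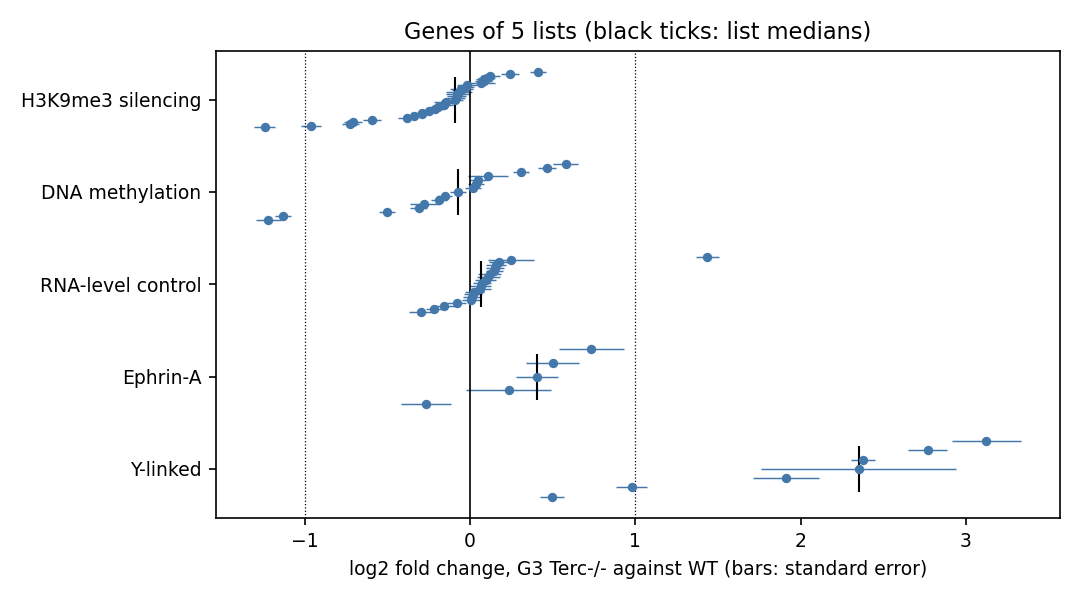
Log2 fold changes of the tested genes of 5 lists (G3 *Terc*-/- against WT, edgeR), with standard errors as bars, black ticks for list medians and dotted lines at a fold change of 2. The Y-linked genes lie to the right with a median of 2.35, *Cbx3*, *Dppa3* and *Dnmt3b* pass the left line, and *Zc3hav1* at 1.43 is the one gene of RNA-level control past the right line.

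Some markers of the cultured cells also differed between the genotypes. Of 10 pluripotency genes, 1 (*Nanog*) was higher at the cutoffs, beside 4.73% of all genes. By adjusted p-value at any size 9 were higher and 1 was lower (*Dppa5a*), where 21.7% and 21.8% of all genes were. The summed level of the pluripotency genes was 6033 and 6138 CPM in WT and 7644 and 8013 CPM in G3 *Terc*-/- libraries, so that ESC markers were abundant in every library. *Nanog* lies on chromosome 6 between 120 and 130 Mb, in the block drawn in an earlier look at these data, where the 101 genes tested had a median of 0.54. Of 12 feeder fibroblast genes, 11 were tested and 1 was higher at the cutoffs (*Dcn*), beside 4.73% of all genes. By adjusted p-value at any size 5 feeder genes were higher, where 21.7% of all genes were, and none of the list was at 0 in all 4 libraries. Their summed level was 1568 and 1307 CPM in WT and 2308 and 1972 CPM in G3 *Terc*-/- libraries. *Fn1* (1073 CPM in WT and 1601 in G3 *Terc*-/- ESCs) and *Vim* (150.3 and 299.3 CPM), which are not particular to fibroblasts, made up most of this sum. The fibroblast genes *Col1a1* (0.16), *Col1a2* (0.21), *Acta2* (0.01), *Postn* (0.24) and *S100a4* (0.24) did not pass the edgeR test. The fibroblast genes *Col3a1* (0.52, adjusted p = 0.00246) and *Thy1* (0.55, adjusted p = 0.000805) were higher in edgeR, by less than a fold change of 2. Over the 11 tested genes of the list the log2 fold changes ran from 0.01 to 1.04, with a median of 0.41. The part of feeder RNA in the IAPEY values was not tested.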

How the data were processed

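Paired-end reads were aligned by the authors to mm10 using STAR, and the deposited tables hold raw counts, 1 table of genes and 1 of TE copies. The submitters' processing notes name Trim Galore, STAR and featureCounts. For single TE copies the study's methods describe reads that map uniquely, and whether the deposited table was counted in this way, and with which strand setting, is not given in the sources used here. From the deposited counts, copies were summed by repeat name and tested with edgeR 4.0.16 in R 4.3.3 (TMM, quasi-likelihood, genotype as the only term), over all names and genes passing filterByExpr and all copies with at least 5 counts. Symbols were matched for 24061 of 24116 gene identifiers in an annotation of GRCm38. Intervals and limits for 0 counts cover counting error alone. Libraries of a genotype differed by more than sampling noise (chi-square per gene 2.23 in WT and 3.21 in G3 *Terc*-/-). Named by rule were *Terc*, all IAPEY names, the 5 copies with the most counts and the 5 with the smallest *P* per direction, all tested ephrin-A and Y-linked genes, up to 6 genes per other list with 7 silencing genes always included, and 9 other IAP names. IAPLTR3-int, the marker genes *Nanog*, *Dppa5a* and *Dcn*, further feeder genes, MERVL-int and some copies were added after their values were seen. Members, lists and tests were chosen with earlier results of these data known. Alternatives were DESeq2 1.42.0, its size factors, gene-count scaling, other filters, a replicate block, the leading copy or a library left out and adjusted p-values. Fits were also run on simulated data in which only features with higher counts were changed, so calls on copies with few counts were not covered.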

Additional observations from a re-analysis of the deposited data

How the results depend on the processing

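The number of IAPEY names called higher (6) stayed between 4 and 6 and that called lower (0) at 0 under every alternative tried, and no name that passed changed direction. IAPEY5_I-int could not be fitted on copies with at least 5 counts. The number of copies called higher (27) was 15 with DESeq2, 16 with at least 20 counts, 11 with filterByExpr and 13 by adjusted p-value, and 6 to 22 with a library left out (6 without G3 *Terc*-/- replicate 1, 14 without G3 *Terc*-/- replicate 2). Copies called lower (1) were 0 with DESeq2, 0 by adjusted p-value and 0 to 2 with a library left out. Fits with 3 libraries, added after seeing the data, assume that the lone library varies like the others. The log2 ratio of the group total (1.05) was 1.10 with gene-count scaling, which shifted the median of all names to 0.06, 1.08 without the leading copy, 0.40 without the copies called higher (added after seeing the data), and 1.03 to 1.06 with a library left out. Values near 0 changed sign: IAPEY2_LTR was -0.10 without its leading copy, IAPEY3_LTR -0.18 on copies with at least 5 counts and -0.0858 to 0.184 with a library left out, and *Uhrf1* -0.0155 (without G3 *Terc*-/- replicate 1) and -0.00584 (without WT replicate 1) to 0.0507 (without G3 *Terc*-/- replicate 2). The cause was not tested. IAPEY5_LTR missed the *P* cutoff with DESeq2 (1.38). Over all alternatives, 145 of 149 log2 fold changes of IAPEY names and 392 of 396 of named genes kept their sign. IAPEY5_I-int was 2.07 without WT replicate 2 as a difference of log2 CPM (prior count 2). With the replicate number as a block, 6 names and 21 copies were higher, 0 names and 1 copy lower, and 6 and 3 list genes higher and lower. The deviations of same-numbered libraries correlated at 0.0617 (genes) and -0.0470 (names), which cannot exclude pairing for a part of the genes. The summed level of the feeder fibroblast genes was higher in replicate 1 of both genotypes. It was 1568 against 1307 CPM in WT and 2308 against 1972 CPM in G3 *Terc*-/- libraries, mostly from *Fn1* and *Vim*. In raw counts of replicates 1 and 2, *Col1a1* had 1324 and 787 in WT and 1415 and 785 in G3 *Terc*-/- ESCs. *Acta2* had 2360 and 1488 in WT and 2404 and 1229 in G3 *Terc*-/- ESCs. By contrast, *Twist1* had 72 and 77 in WT, and *Dcn* had 27 and 26 in G3 *Terc*-/- ESCs. Low counts limited single copies, 56 of the 123 tested having 5 to 11 counts.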
